A study of Homo sapiens with 6 samples.

Results

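Amino acid transporter genes were followed in T24, an established cell line from a human bladder cancer, after knockdown of USP43, a deubiquitinating enzyme. The 10 genes were chosen by name, SLC7A5, SLC3A2, SLC1A5, SLC7A1, SLC7A2, SLC7A6, SLC38A1, SLC38A2, SLC1A1 and SLC1A4, and all 10 were found among the 63241 genes of the deposited table, each in 1 row. The study compared cells that received a control small interfering RNA (siNC, genotype WT, 3 libraries) with cells that received one against USP43 (siUSP43, genotype USP43 knockdown, 3 libraries). The series asked how USP43 bears on lipid metabolism in bladder cancer. All 6 libraries came from the same line, grown in medium with fetal bovine serum, and the labels put them in the same batch. The labels give neither the time after transfection nor the duplex sequences, and they leave unsaid whether replicates were separate cultures. The p-values therefore cover the spread among these libraries alone, and that spread may be technical.

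Amino acids cross the plasma membrane through carriers of several families. SLC7 light chains such as SLC7A5 (LAT1, large neutral amino acids including leucine) and SLC7A6 (y+LAT2, cationic and neutral amino acids) reach the surface only when bound to the SLC3A2 heavy chain (CD98), and they work as exchangers that release 1 amino acid for each taken up. SLC1A5 (ASCT2) exchanges small neutral amino acids including glutamine, SLC38A1 and SLC38A2 (SNAT1 and SNAT2) accumulate them with sodium, and SLC7A1 and SLC7A2 (CAT1 and CAT2) carry arginine and lysine. Tumour cells, those of the bladder among them, are known for high LAT1 and CD98, which feed leucine to the growth kinase complex mTORC1. When amino acids are scarce, the kinase GCN2 raises translation of the transcription factor ATF4, which binds C/EBP-ATF elements in several of these transporter genes, and MYC acts on some of them through the E-box.

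Because several of these genes are known ATF4 or MYC targets, their RefSeq promoter windows were searched for TGATGNAA, the core of the C/EBP-ATF element, and for the E-box CACGTG, on both strands, the E-box being the same on each. A window ran from 250 bases before an annotated start to 50 after it (GRCh38.p14), and 9 of the 10 genes had at least 1 window, 15 in all. TGATGNAA was found for 5 of these 9 genes, in 5 of the 15 windows, against 3.62% of all 35116 windows of the same length. CACGTG was found for 2 of the 9 genes, in 2 of the 15 windows, against 7.26% of all windows. Counted by gene, TGATGNAA was in 4.46% and CACGTG in 8.77% of all 27305 genes with a window, and in 2.49% and 12.9% of the tested genes with one. The 30 bases around each match are printed in the gene's own direction, with the matched letters in capitals. In SLC3A2 and SLC1A4 the TGATGNAA match is on the opposite strand, so its reverse complement stands in capitals.
SLC3A2 TGATGNAA, chr11:62881719-62881748, plus strand: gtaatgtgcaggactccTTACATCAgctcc
SLC7A1 TGATGNAA, chr13:29595663-29595692, minus strand: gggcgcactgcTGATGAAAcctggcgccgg
SLC1A5 TGATGNAA, chr19:46784893-46784922, minus strand: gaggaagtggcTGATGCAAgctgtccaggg
SLC38A1 TGATGNAA, chr12:46266502-46266531, minus strand: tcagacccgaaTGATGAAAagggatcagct
SLC1A4 TGATGNAA, chr2:64989381-64989410, plus strand: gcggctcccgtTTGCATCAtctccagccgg
SLC7A5 CACGTG, chr16:87869620-87869649, minus strand: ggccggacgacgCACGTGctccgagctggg
SLC1A5 CACGTG, chr19:46787326-46787355, minus strand: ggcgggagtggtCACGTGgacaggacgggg

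The matches in SLC3A2 and SLC7A1 began 38 and 8 bases into the transcript, and those in SLC1A4 and SLC38A1 began 7 and 4 bases before an annotated start. The TGATGNAA match of SLC1A5 and its CACGTG lay beside different annotated starts, 97 and 50 bases upstream, and the CACGTG of SLC7A5 lay 130 bases upstream. These are matches of letters and not shown binding sites.

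Total gene counts ran from 21430574 to 25577200 per library. USP43 itself stood at 2.36, 2.09 and 2.08 FPKM (reads scaled to exonic length and to library size) in the siNC libraries and at 1.02, 0.67 and 0.80 in siUSP43 (log2 fold change -1.40, SE 0.14; edgeR, adjusted p = 5.63e-06). On log2(FPKM + 1) limma gave -0.80. The epithelial keratins KRT7, KRT8, KRT18 and KRT19 were all present, and 6 epithelial markers summed to 523.7 to 540.8 FPKM in siNC and 466.0 to 529.5 in siUSP43, while CDH1 had 0 to 3 counts per library. These markers did not move together. KRT7 and KRT19 fell, both with a log2 fold change of -0.38, while KRT8 and KRT18 did not reach an adjusted p under 0.05 (edgeR). EPCAM rose from 33 to 52 counts in siNC to 80 to 89 in siUSP43 (log2 fold change 1.07; edgeR without the filter, adjusted p = 1.94e-06). The 4 mesenchymal markers VIM, CDH2, FN1 and ZEB1 summed to 672.0 to 674.4 FPKM in siNC and 503.5 to 527.2 in siUSP43, FN1 being the 1 that fell. The part of these shifts in the transporter results was not tested. Of 6 urothelial markers, the 4 uroplakins UPK1A, UPK1B, UPK2 and UPK3A, which define the differentiated lining, were near absent with 0 to 5 counts per library each. GATA3 was low, at 40 to 45 counts in siNC and 22 to 26 in siUSP43 (log2 fold change -0.76; edgeR without the filter, adjusted p = 0.0209), a call that ended in 6 alternatives, DESeq2 (adjusted p = 0.161) among them. PPARG was present at 1.84 to 2.04 FPKM in siNC and rose to 2.63 to 2.92 in siUSP43 (log2 fold change 0.50; edgeR, adjusted p = 8.9e-05). Of the 5 leukocyte, 4 endothelial and 5 fibroblast markers none reached a mean of 1 FPKM, with summed levels of at most 0.22, 0.19 and 1.52 FPKM in any library, and CD3E was at 0 counts.

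The heavy chain SLC3A2, its light chains SLC7A5 and SLC7A6, the glutamine exchanger SLC1A5 and the arginine carrier SLC7A1 were higher in siUSP43, by 1.13 to 1.53 fold. The abundant SLC38A2 and the low-level SLC1A4 were lower, and so was SLC1A1, which was below the level needed for the test. Of the 10 genes, 9 reached the mean of 1 FPKM needed for the test, 5 of these rose, 2 (SLC38A2 and SLC1A4) fell and 2 did not pass (edgeR quasi-likelihood test, Benjamini-Hochberg adjusted p under 0.05 over 11417 tested genes). Over all tested genes 56.1% passed, 28.0% upward and 28.1% downward, so passing was common and the count of transporter genes is read against that. Without the filter 8 of the 10 passed, beside 23.3% of the 33934 genes with any count. Most of those genes lay under 1 FPKM, unlike 9 of the 10, so the 56.1% is the nearer comparison. The 9 tested genes had a median log2 fold change of 0.17, beside -0.01 for all tested genes. FPKM values of the groups did not overlap for 7 of the 10 genes, 5 higher and 2 lower in siUSP43, beside 62.2% of all tested genes, 32.5% higher and 29.6% lower. The lower ones were SLC1A4 and SLC1A1, and SLC1A1 is outside the tested genes that these shares cover. In these bulk samples, fewer cells with a transcript and less of it per cell cannot be told apart.

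**Figure D1:**
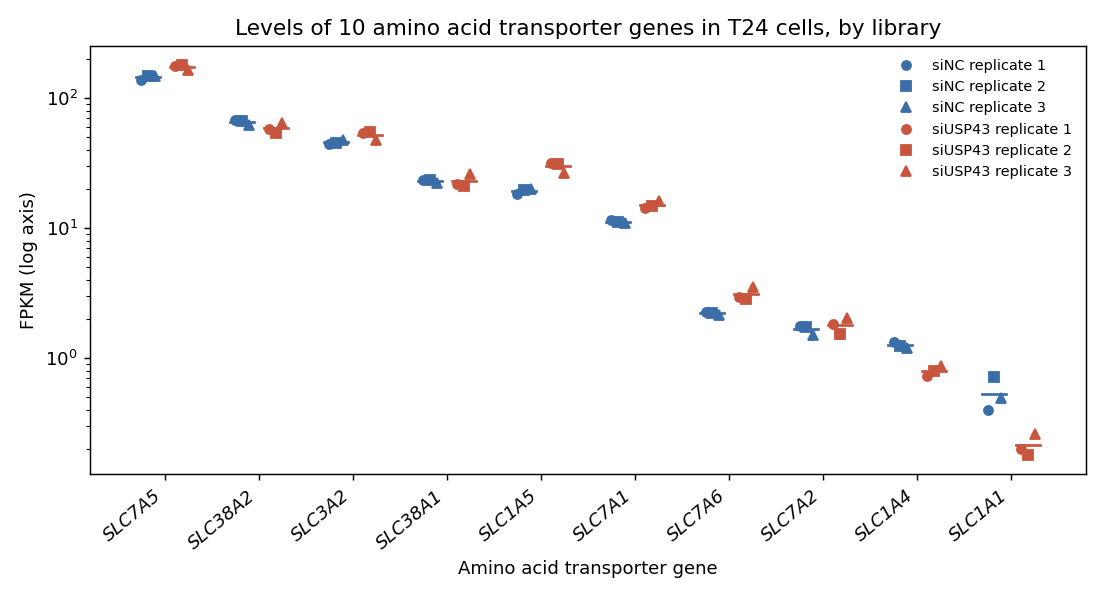
FPKM of each of the 10 genes (log axis) in every library, siNC in blue and siUSP43 in red, with the replicate given by the marker and the group mean by the bar. Levels ran from 149 FPKM for SLC7A5 to 0.40 for SLC1A1 in siNC, and SLC1A5 moved above SLC38A1 in siUSP43.

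SLC7A5 was the most abundant of the 10 per unit of length. In siNC the order of mean FPKM was SLC7A5 (145), SLC38A2 (65.8), SLC3A2 (45.8), SLC38A1 (23.1), SLC1A5 (19.3), SLC7A1 (11.2), SLC7A6 (2.21), SLC7A2 (1.67), SLC1A4 (1.25) and SLC1A1 (0.53), and the 3 values of each gene lay apart from those of its neighbours in the order. In siUSP43 SLC1A5 (29.9 FPKM) stood above SLC38A1 (23.1 FPKM), with 26.45 FPKM as the lowest value of the former and 26.22 as the highest of the latter. SLC38A2 and SLC3A2 kept their places there, but their ranges of 54.5 to 64.9 and 48.0 to 55.3 FPKM overlapped. The 10 genes summed to 309, 321 and 317 FPKM in siNC and to 363, 362 and 353 in siUSP43, and SLC7A5 alone held 44.5 to 47.0% of that sum in siNC and 46.6 to 49.6% in siUSP43.

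SLC7A5 (ENSG00000103257, chromosome 16, 87830023 to 87869507, minus strand, GRCh38), the leucine and large neutral amino acid exchanger, had 137.4, 148.0 and 149.1 FPKM in siNC and 177.7, 179.2 and 164.3 FPKM in siUSP43. All 3 siUSP43 values lay above all siNC values, and the SDs were 6.46 and 8.23 FPKM. The log2 fold change was 0.25 ± 0.05 (SE; edgeR, adjusted p = 0.00139), a 1.19-fold increase in a gene whose mean level exceeded that of 98.7% of tested genes.

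SLC3A2 (ENSG00000168003, chromosome 11, 62856004 to 62888880, plus strand), the heavy chain, had 44.3, 45.5 and 47.7 FPKM in siNC and 53.6, 55.3 and 48.0 FPKM in siUSP43. The groups were separated by the narrow gap between siNC replicate 3, at 47.68 FPKM, and siUSP43 replicate 3, at 47.97 FPKM. Its log2 fold change was 0.17 ± 0.06 (SE; edgeR, adjusted p = 0.023). This call ended in 6 of 15 alternatives, which included upper quartile scaling (adjusted p = 0.081) and the fits without siNC replicate 1 (0.1), siNC replicate 2 (0.0802), siUSP43 replicate 1 (0.0886) or siUSP43 replicate 2 (0.0634).

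The light chain to heavy chain ratio moved little. SLC7A5 per SLC3A2, both in FPKM, was 3.11, 3.25 and 3.13 in siNC and 3.31, 3.24 and 3.42 in siUSP43, and these ranges overlapped. SLC7A6 (ENSG00000103064, chromosome 16, 68264516 to 68301823, plus strand), another light chain of SLC3A2, was far less abundant, with 2.28, 2.21 and 2.13 FPKM in siNC and 2.97, 2.86 and 3.50 FPKM in siUSP43. All siUSP43 values were above all siNC values, with a log2 fold change of 0.48 ± 0.08 (SE; edgeR, adjusted p = 0.00039). SLC7A6OS lies over it on the other strand with 162 to 209 counts per library, against 474 to 803 for SLC7A6, and had a log2 fold change of -0.15 (edgeR, adjusted p = 0.249). Whether the counting used strand was not stated, so reads over the shared bases cannot be assigned with certainty.

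The other known light chains of SLC3A2 were SLC7A7, SLC7A8, SLC7A10 and SLC7A11, and of these SLC7A11 alone reached the test. SLC7A11, the cystine-glutamate exchanger of system xc-, was at 6.97 ± 0.605 FPKM in siNC and 11.75 ± 1.43 in siUSP43 (SD, n = 3 each) and rose by 0.74 ± 0.08 on the log2 scale (SE; edgeR, adjusted p = 1.71e-05). SLC7A7 had 10 to 19 counts per library, SLC7A8 had 0 to 8, and SLC7A10 was at 0 counts in all 6 libraries. The 3 light chains SLC7A5, SLC7A6 and SLC7A11 together gave 3.32, 3.46 and 3.30 FPKM per FPKM of SLC3A2 in siNC and 3.59, 3.48 and 3.77 in siUSP43, ranges that lay apart by a small margin.

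**Figure D2:**
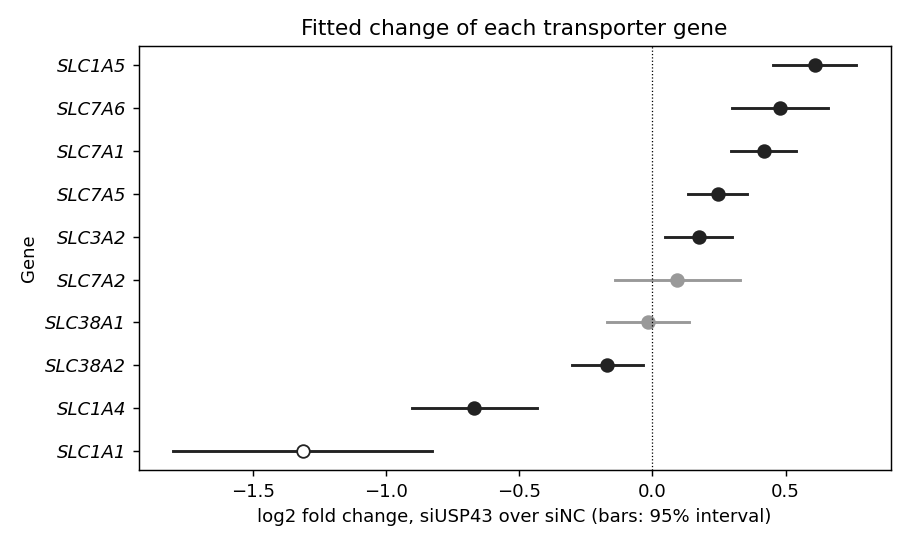
Fitted log2 fold change of each gene, siUSP43 over siNC (points), with its 95% interval (bars). Black marks genes past the threshold and grey those not past it, and the open point is SLC1A1, fitted only without the filter on low values; values run from -1.31 for SLC1A1 to 0.61 for SLC1A5.

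SLC1A5 (ENSG00000105281, chromosome 19, 46774883 to 46788594, minus strand), the glutamine exchanger, had the largest increase of the 10. It stood at 18.3, 19.7 and 20.0 FPKM in siNC and at 31.7, 31.4 and 26.5 FPKM in siUSP43, every siUSP43 value above every siNC value. The log2 fold change was 0.61 ± 0.07 (SE; edgeR, adjusted p = 2.26e-05).

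Its closest relative in the set, SLC1A4 (ENSG00000115902, chromosome 2, 64988477 to 65023865, plus strand), the alanine, serine and cysteine exchanger ASCT1, went the other way. SLC1A4 had 1.32, 1.23 and 1.20 FPKM in siNC and 0.73, 0.79 and 0.87 FPKM in siUSP43, from 138 to 261 counts per library, and its mean of 1.02 FPKM was just above the filter. All siUSP43 values were below all siNC values, and the log2 fold change was -0.67 ± 0.11 (SE; edgeR, adjusted p = 0.00025). On log2(FPKM + 1), where the added 1 is as large as the gene's own level, limma gave -0.32. SLC1A5 per SLC1A4, in FPKM, was 13.9, 16.0 and 16.7 in siNC and 43.5, 39.7 and 30.4 in siUSP43.

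SLC1A1 (ENSG00000106688, chromosome 9, 4490468 to 4587469, plus strand), the high-affinity glutamate and cysteine carrier EAAT3, did not reach the filter. It had 45, 82 and 57 counts in siNC (0.40, 0.71 and 0.49 FPKM) and 24, 18 and 31 counts in siUSP43 (0.20, 0.18 and 0.26 FPKM), and the groups did not overlap. Fitted without the filter, over 33934 genes of which 12.0% fell, its log2 fold change was -1.31 ± 0.25 (SE; edgeR, adjusted p = 1.27e-06), while limma on log2(FPKM + 1) without the filter gave -0.33 (adjusted p = 0.0583). SPATA6L lies over 34084 of its bases on the other strand, with 24 to 58 counts per library and a log2 fold change of -0.62 in the same fit, so the origin of these few reads is uncertain.

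SLC7A1 and SLC7A2 both carry arginine, lysine and ornithine. SLC7A1 (ENSG00000139514, chromosome 13, 29509414 to 29595688, minus strand), the broadly expressed one, had 11.6, 11.1 and 11.0 FPKM in siNC and 14.3, 14.8 and 16.3 FPKM in siUSP43. The groups were well apart, and the log2 fold change was 0.42 ± 0.06 (SE; edgeR, adjusted p = 5.88e-05). SLC7A2 (ENSG00000003989, chromosome 8, 17497088 to 17570573, plus strand) had 1.78, 1.72 and 1.51 FPKM in siNC and 1.83, 1.54 and 2.03 FPKM in siUSP43, and the groups overlapped. Its log2 fold change was 0.09, with a 95% interval of -0.14 to 0.33 (edgeR, adjusted p = 0.479), which does not reach the 0.42 of SLC7A1; whether the changes of the pair differ was not tested. SLC7A1 stood at 6.44 to 7.26 times the FPKM of SLC7A2 in siNC and at 7.82 to 9.61 times in siUSP43.

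SLC38A1 and SLC38A2, the sodium-coupled glutamine and alanine carriers, lie on the same strand of chromosome 12 with 88170 bases between them. SLC38A1 (ENSG00000111371, 46183063 to 46270017, minus strand) had 23.5, 23.4 and 22.4 FPKM in siNC and 22.0, 20.97 and 26.2 FPKM in siUSP43. The siNC values lay inside the range of siUSP43, and the log2 fold change was -0.02 with a 95% interval of -0.17 to 0.14 (edgeR, adjusted p = 0.857). The estimate moved with the library left out, from 0.05 without siUSP43 replicate 2 to -0.12 without replicate 3, the highest library, and it passed in the latter fit (edgeR, adjusted p = 0.0199).

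SLC38A2 (ENSG00000134294, 46358188 to 46372773, minus strand), the form known to be induced when amino acids are withdrawn, had 68.2, 67.3 and 62.0 FPKM in siNC and 58.3, 54.5 and 64.9 FPKM in siUSP43. The groups overlapped, since siUSP43 replicate 3 lay above siNC replicate 3. The log2 fold change was -0.17 ± 0.06 (SE; edgeR, adjusted p = 0.0341), and the call ended in 7 of 15 alternatives. Among these were limma on log2(FPKM + 1) (adjusted p = 0.0949) and on log2(FPKM + 0.1) (0.0959), and the fits without siNC replicate 1 (0.124), siNC replicate 2 (0.113), siUSP43 replicate 1 (0.115) or siUSP43 replicate 2 (0.111). SLC38A4, the next carrier gene of the family on the chromosome, 391987 bases further on, had 39 to 42 counts in siNC and 11 to 30 in siUSP43, with a log2 fold change of -1.11 without the filter (edgeR, adjusted p = 0.000806) and of -0.21 by limma on log2(FPKM + 1) (adjusted p = 0.0567); it was singled out for its position after its values were seen.

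**Figure D3:**
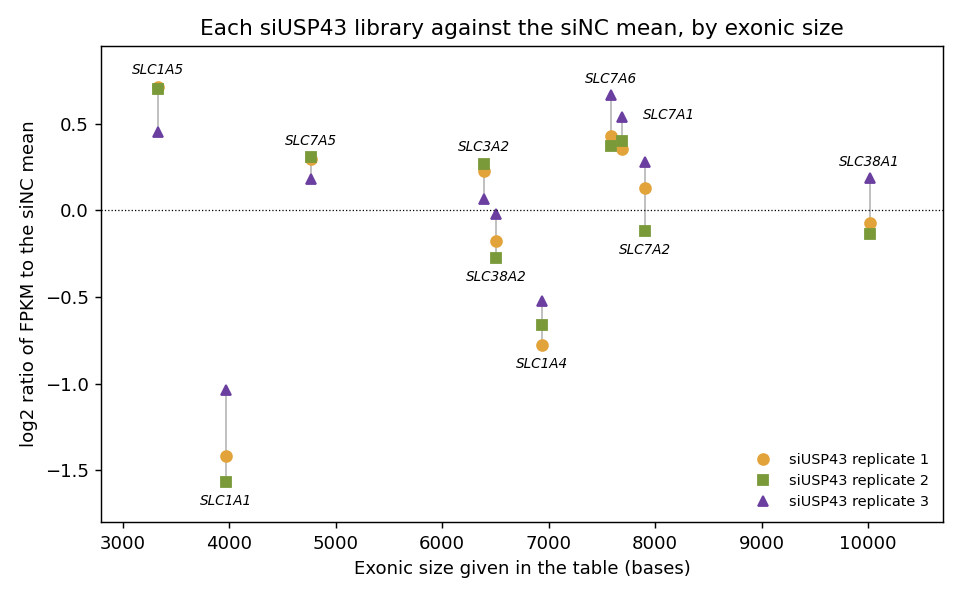
log2 ratio of each siUSP43 library to the siNC mean for the 10 genes, against exonic size in bases, with lines joining the 3 libraries of a gene. Replicate 3 (triangles) is the lowest of the 3 for SLC1A5, SLC7A5 and SLC3A2 and the highest for the other 7 genes.

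The siUSP43 libraries differed among themselves, and over all genes part of that went with exonic size. Replicate 3 was the lowest siUSP43 library for SLC1A5 (3332 bases), SLC7A5 (4764 bases) and SLC3A2 (6392 bases), and the highest for the other 7, which had exonic sizes of 6509 to 10015 bases apart from SLC1A1 at 3974. SLC38A1, the gene with the most exonic bases, stood 0.29 higher on the log2 scale in replicate 3 than in the mean of the other siUSP43 libraries, and SLC1A5 stood 0.25 lower. Across the 11417 tested genes, a library's deviation from the other libraries of its group correlated with exonic size at a Spearman rho of 0.38 for siUSP43 replicate 3, -0.34 for siUSP43 replicate 2 and -0.28 for siNC replicate 3, and at -0.16 to 0.20 for the remaining libraries. Genes share libraries and are not independent, so these values describe the libraries, and their part in the transporter results was not tested. Without siUSP43 replicate 3, 8 of the 9 tested genes passed, 5 higher and 3 lower.

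**Figure D4:**
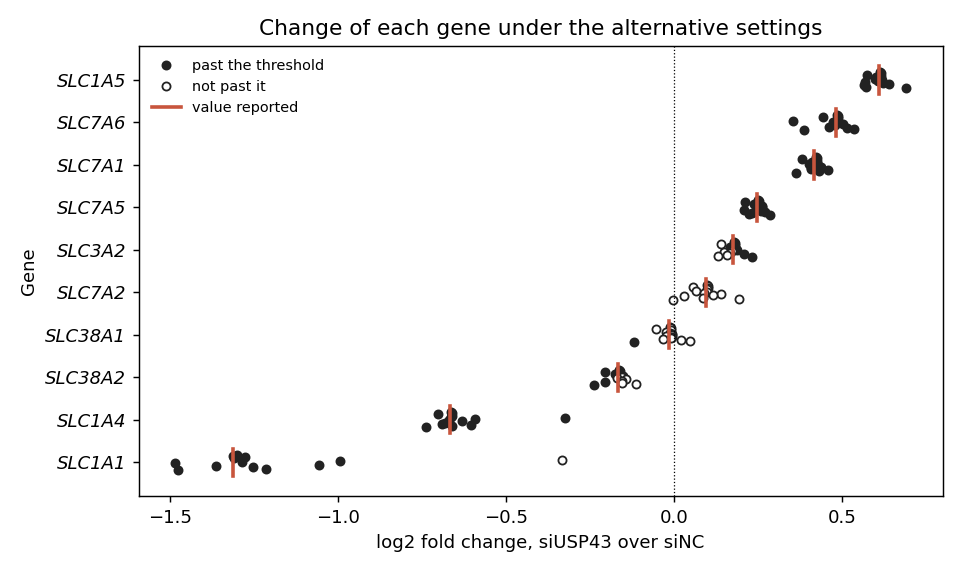
log2 fold change of each gene under the alternative settings (points, filled where past the threshold, open where not), with the reported value as a red line. The open points of SLC3A2 and SLC38A2 mark the alternatives in which their calls ended, and SLC7A5, SLC1A5, SLC7A1, SLC7A6 and SLC1A4 have filled points throughout.

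Over the 6 libraries, the tested protein-coding genes whose log2(FPKM + 1) followed that of SLC7A5 most closely were SNX11, ADM2 and USP11, with Pearson r of 0.9986, 0.9978 and 0.9967 among 10132 genes compared. As 407 genes had r of at least 0.95 and 6 libraries in 2 groups leave little else than the group difference, this is a description of the libraries. Within the set r with SLC7A5 was 0.99 for SLC1A5 and 0.95 for SLC3A2, 0.79 for SLC7A1 and 0.73 for SLC7A6, and at the other end -0.98 for SLC1A4.

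Carriers outside the set were mostly at low levels in T24. Of 24 other cell-surface amino acid carriers 3 reached the filter, and of these 2 fell, 1 did not pass and 0 rose. Over all tested genes 28.0% rose and 28.1% fell. SLC6A6, the taurine carrier, fell from 6.39 ± 0.263 to 4.13 ± 0.370 FPKM (log2 fold change -0.64, SE 0.07; SD, n = 3 each). SLC43A1, a leucine and large neutral amino acid carrier that needs no heavy chain, fell from 3.98 ± 0.0529 to 2.95 ± 0.297 FPKM (log2 fold change -0.45, SE 0.09), and SLC7A5 per SLC43A1 went from 34.7 to 37.9 in the siNC libraries to 54.0 to 64.5 in siUSP43. Its relative SLC43A2 lay just under the filter, at 0.97 FPKM in each siNC library and 0.57, 0.56 and 0.47 in siUSP43 (log2 fold change -0.87, SE 0.12; edgeR without the filter, adjusted p = 4.09e-12), and -0.36 by limma on log2(FPKM + 1). Without the filter 20 of the 24 had counts and 6 of them fell, beside 12.0% of the 33934 genes with any count. The rest of the 6 were SLC1A3, SLC38A4 and SLC6A9, named here after their values were seen. Of these, SLC1A3 and SLC38A4 did not pass by limma on log2(FPKM + 1), with adjusted p = 0.0835 and 0.0567. SLC36A4, at 0.08, was the tested carrier that did not pass; 0 rose, at an adjusted or an unadjusted p under 0.05 in edgeR, and 0 rose in DESeq2 or limma among those at 1 FPKM or more.

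Of 9 carriers listed as lysosomal 8 were tested, 1 rose and 4 fell, with a median log2 fold change of -0.20. Over all tested genes 28.0% rose and 28.1% fell. SLC38A9, which reports lysosomal arginine to mTORC1, rose from 2.69 ± 0.137 to 3.72 ± 0.0902 FPKM (log2 fold change 0.45, SE 0.06; SD, n = 3 each), and MFSD12, SLC15A4 and SLC38A6 fell, with -0.32, -0.31 and -0.30. Whether SLC38A6 is lysosomal in these cells was not tested. Of 12 mitochondrial carriers 10 were tested, 4 rose and 4 fell, with a median of -0.03, beside the same 28.0% and 28.1%. SLC25A13, the aspartate-glutamate carrier citrin, and SLC25A15, the ornithine carrier, rose, with log2 fold changes of 0.69 and 0.62. SFXN1, the serine carrier, fell from 11.1 ± 0.717 to 5.64 ± 0.458 FPKM (log2 fold change -0.99, SE 0.07; SD, n = 3 each), and its relative SFXN2 by 0.50 on the log2 scale.

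**Figure D5:**
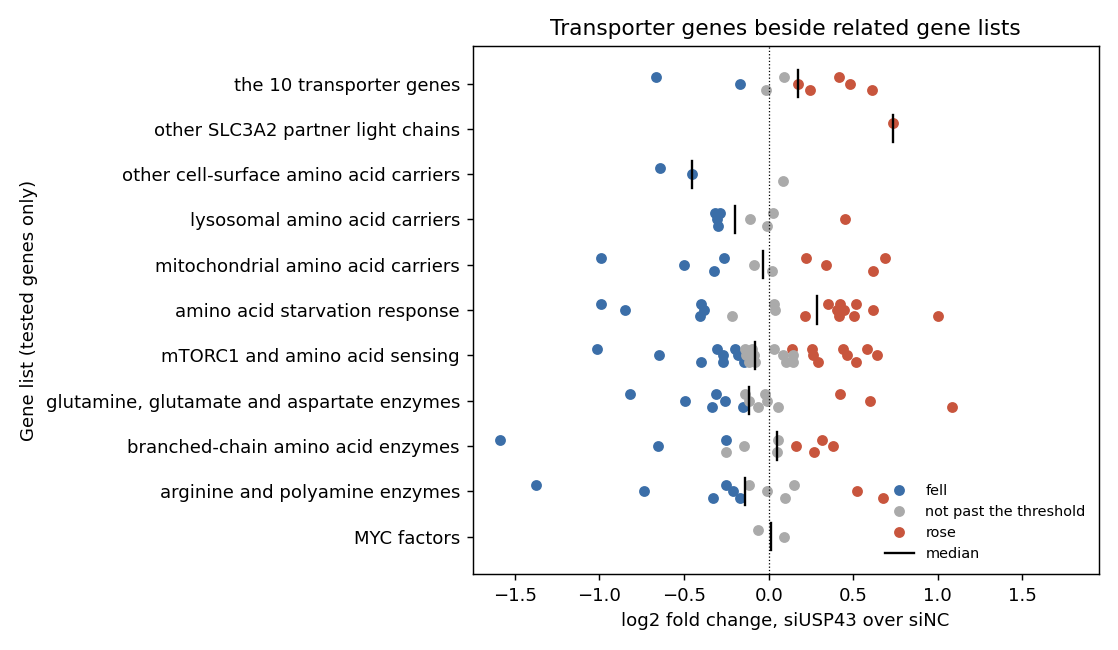
log2 fold change (siUSP43 over siNC) of every tested gene of the transporter set and of related lists, red for genes that rose, blue for those that fell and grey for those not past the threshold, with list medians as black bars. Each list with more than 3 tested genes holds genes on both sides of 0.

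The amino acid starvation response list, which holds ATF4 and genes known to follow it, had genes of both directions, with more that rose than fell. Of 20 listed genes 18 were tested, 10 rose, 5 fell and 3 did not pass, with a median log2 fold change of 0.28. Over all tested genes 28.0% rose and 28.1% fell, and the list was not tested as a set. ATF4 mRNA stood at 91.0 ± 2.95 FPKM in siNC and 94.4 ± 5.88 in siUSP43 (log2 fold change 0.04, 95% interval -0.08 to 0.16; SD, n = 3 each) and did not pass; ATF4 is mainly controlled at translation, and protein was not analysed here. ATF3 and TRIB3, stress-induced regulators, rose, with log2 fold changes of 1.00 (0.66 in limma on log2(FPKM + 1)) and 0.62, while CEBPB, the C/EBP beta gene, and DDIT4, an inhibitor of mTORC1 signalling, fell, with -0.99 and -0.85. ASNS, the asparagine synthetase gene and a textbook ATF4 target, was near the floor of detection in this line, with 30 to 53 counts in siNC and 37 to 64 in siUSP43 (0.21 to 0.44 FPKM), and did not pass without the filter (log2 fold change 0.33, 95% interval -0.12 to 0.78).

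TGATGNAA matches were in the promoter windows of 4 of the 17 starvation response genes with a window, ASNS, ATF3, CEBPG and CHAC1. Among the transporters with a match, SLC3A2, SLC7A1 and SLC1A5 rose, SLC38A1 did not pass and SLC1A4 fell, so the letters were found on genes of either direction. Of 214 tested genes with the match 34.1% rose and 24.8% fell, and of 8373 without it 30.1% rose and 28.96% fell. For CACGTG, 29.8% of 1107 genes with it rose and 28.0% fell, against 30.3% and 28.98% of 7480 without. MYC, whose protein binds that E-box, had 14.05 ± 0.655 FPKM in siNC and 15.1 ± 0.248 in siUSP43 (log2 fold change 0.09, 95% interval -0.02 to 0.20; SD, n = 3 each) and did not pass, nor did its partner MAX at -0.06; of 4 MYC factors 2 were tested and 0 passed with edgeR, DESeq2 or limma, nor did any at an unadjusted p under 0.05 in edgeR.

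Of 33 listed amino acid sensing genes of the mTORC1 pathway 29 were tested, 9 rose and 9 fell, with a median log2 fold change of -0.08. Over all tested genes 28.0% rose and 28.1% fell, shares near those of this list. MTOR, the kinase itself, fell from 5.39 ± 0.246 to 3.48 ± 0.220 FPKM (log2 fold change -0.65, SE 0.06; SD, n = 3 each), and BMT2, which encodes the methionine-derived signal sensor SAMTOR, fell by 1.01 (by 0.62 in limma on log2(FPKM + 1)). The arginine sensor CASTOR1 itself lay below the filter, with 79, 84 and 108 counts in siNC and 30, 20 and 23 in siUSP43 (log2 fold change -1.87, SE 0.23; edgeR without the filter, adjusted p = 4.56e-15; -0.70 by limma on log2(FPKM + 1)); it was added after its values were seen. Its relative CASTOR2, and SEH1L, a subunit of the GATOR2 complex, rose, with 0.64 (0.43 in limma on log2(FPKM + 1)) and 0.58.

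Enzymes that use the carried amino acids also differed by gene. Of 15 tested glutamine, glutamate and aspartate enzymes, out of 19 listed, 3 rose and 6 fell, with a median of -0.12. Over all tested genes 28.0% rose and 28.1% fell. GLUL, glutamine synthetase, did not pass, with a log2 fold change of -0.06 (95% interval -0.16 to 0.04). GFPT1, the first enzyme of the hexosamine pathway, rose from 7.63 ± 0.197 to 16.3 ± 0.912 FPKM (log2 fold change 1.08, SE 0.05; SD, n = 3 each), and CAD, of pyrimidine synthesis, rose, with 0.60. PPAT, of purine synthesis, and GOT1, the cytosolic aspartate transaminase, fell, with -0.82 and -0.49.

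Of 12 tested arginine and polyamine enzymes, out of 19 listed, 2 rose and 6 fell, with a median of -0.14. Over all tested genes 28.0% rose and 28.1% fell. ASS1 and ASL, which make arginine from citrulline, fell, ASS1 from 3.74 ± 0.0755 to 1.46 ± 0.070 FPKM (log2 fold change -1.37, SE 0.10; SD, n = 3 each) and ASL by 0.74 on the log2 scale (by 0.44 in limma on log2(FPKM + 1)), in the same libraries in which the arginine carrier SLC7A1 was higher. ODC1, ornithine decarboxylase, and SMS, spermine synthase, rose, with 0.52 and 0.68. Of 11 tested branched-chain amino acid enzymes, out of 13 listed, 4 rose and 3 fell, with a median of 0.05. The shares over all tested genes are again 28.0% and 28.1%. AUH and IVD, of leucine breakdown, fell, with -1.59 and -0.66, and BCAT2, the mitochondrial transaminase, and DBT, a subunit of the branched-chain ketoacid dehydrogenase, rose, with 0.32 and 0.38. MFSD12, SLC38A6, CASTOR2, SEH1L, MAX, ADM2 and SLC6A9 each overlap another tested gene, so some of their reads may belong to it.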

How the data were processed

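Raw read counts and FPKM per gene were deposited by the authors for each of the 6 libraries, per the file headers. The submitters' processing notes name cutadapt 2.6, HISAT2 2.2.1 and GRCh38. For the counting program, the gene annotation release and the use of strand, the sources used here give nothing. Group and replicate number came from the sample titles, and coordinates are those of the deposited table. RefSeq promoter windows carry the build GRCh38.p14.

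Counts were tested with edgeR 4.0.16 in R 4.3.3 (quasi-likelihood test, TMM scaling on totals of all genes, group as the only term, Benjamini-Hochberg adjustment, two-sided). A gene entered when its FPKM averaged 1 or more across the libraries, with USP43 and E2F1 kept whatever their level, which left 11417 genes. Genes under that level were fitted without the filter, where the adjustment ran over 33934 genes with any count. SEs were derived from the log2 fold change and the F statistic. The tests were also run on simulated counts in which few genes changed. That check covers neither changes as small as that of SLC3A2 nor scaling where most genes change. The median count of a tested gene was 904. Fold changes are siUSP43 over siNC.

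The members and gene lists were chosen with earlier results of these data known. Named genes were the 10 transporters, USP43, up to 4 tested genes of each list with the largest absolute change, the 3 genes most correlated with SLC7A5, and ATF4, MYC, SLC7A11, SLC7A7, SLC7A8, SLC43A2, ASNS and GLUL. A few results the rule selects are not reported here. Alternatives were RLE, library totals and upper quartile scaling, no filter and a mean of 5 FPKM, DESeq2 1.42.0, limma 3.58.1 on log2(FPKM + 1) and log2(FPKM + 0.1), the replicate number as a block, and each library left out.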

Additional observations from a re-analysis of the deposited data

How the results depend on the processing

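Calls and directions of SLC7A5, SLC1A5, SLC7A1, SLC7A6, SLC1A4 and USP43 held under every alternative that could fit them, 14 or 15 for each. Of 60 genes, those of the naming rule and 6 chosen after their values were seen, 47 kept direction and call throughout. The exceptions were SLC3A2, SLC38A2, SLC1A1, SNX11, USP11, GATA3, SLC38A4 and SLC1A3, whose calls ended in some alternatives, and SLC38A1, SLC7A2, ATF4, SLC7A7 and SLC7A8, which were not called and changed sign when 1 library was left out. When each library was left out in turn, the log2 fold change ran from -0.00215 to 0.191 for SLC7A2, from -0.119 to 0.0459 for SLC38A1, from -0.0133 to 0.0773 for ATF4, from -0.187 to 0.0878 for SLC7A7 and from -0.826 to 0.446 for SLC7A8. None of the 7 values with the changed sign passed.

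Requiring a mean of 5 FPKM left 6246 genes and gave 3781 calls, 1889 higher and 1892 lower, as fewer genes were tested. The count of transporter genes that fell was 1 under that filter, where SLC1A4 was not tested, and 1 under both limma fits and with the replicate block, where SLC38A2 did not pass; it was 3 without a filter and 1 to 3 when single libraries were left out. Transporter calls in either direction numbered 5 to 8. Same-numbered replicates did not deviate together (r of -0.01, -0.13 and -0.26), but with 3 libraries per group this cannot exclude a pairing of the samples. With the replicate block in edgeR 5616 genes and 5 of the 9 transporters passed, and SLC3A2 (adjusted p = 0.0538) and SLC38A2 (0.0601) did not. Without a filter 6 rather than 2 of the other cell-surface carriers fell. At 18 to 82 counts per library, the decrease of SLC1A1 is known only roughly.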
